A study of Mus musculus with 8 samples.

Results

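The mitochondrial ribosomal proteins were followed in whole liver of POMCMfn2KO and control mice. They were taken as every gene whose symbol on the array is Mrpl or Mrps followed by a number, each read from its brightest probe set by the mean of the 8 arrays. This gave 76 genes of the 18193 with a named probe set. Of these, 49 encode proteins of the large subunit and 26 proteins of the small subunit. Mrps36 carries the family name but is a subunit of the 2-oxoglutarate dehydrogenase complex and not of the ribosome. Mrps30 and Mrps18a were counted with the large subunit, where their proteins sit despite the S in their names. Mrpl30 and Mrpl53 were read only by probe sets shared with another gene and were not analysed here.

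The POMCMfn2KO group holds 5 mice and the control group 3, all aged 6 weeks and each on its own array. In POMCMfn2KO mice Mfn2, a gene for mitochondrial fusion, is missing from the POMC neurons of the hypothalamus, and the labels do not name the Cre line. Controls carry the genotype label WT, and both groups share a mixed background of the strains C57Bl/6J, FVB/N and 129. Chow and water were freely available to both groups. The deletion lies in the brain, so Mfn2 in liver does not check the labels. Its level was 9.61 ± 0.24 in POMCMfn2KO livers and 9.88 ± 0.08 in control livers (log2, SD, n = 5 and 3; limma adjusted p = 0.169).

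Mitochondria keep their own ribosome, which makes the few respiratory chain and ATP synthase subunits encoded in mitochondrial DNA. Its RNAs come from mitochondrial DNA, while every one of its proteins is encoded in the nucleus, made in the cytosol and imported. Many of the proteins have relatives in bacterial ribosomes, and others are found only in mitochondria. In liver, mitochondrial translation supplies the respiratory chain of a cell type rich in mitochondria, in which gluconeogenesis, the urea cycle and fatty acid oxidation depend on respiration.

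Levels are log2 values that the authors made with RMA, a method that corrects, normalises and summarises the probes of an array. A difference of 1 on this scale is a doubling, and differences are given as POMCMfn2KO minus control. Genes were tested with limma, which fits each gene and borrows variance across genes, and p-values were adjusted by the Benjamini-Hochberg method over the 11986 genes tested. "Rose" and "fell" mean an adjusted p under 0.05. In whole tissue, fewer cells of a type and less RNA per cell cannot be told apart.

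The arrays of the 2 groups differed in their likeness to each other. Correlations over genes lay between 0.9896 and 0.9964 within the POMCMfn2KO group and between 0.9974 and 0.9977 within the control group. POMCMfn2KO arrays 2 and 3 stood apart in pancreatic acinar transcripts, whose markers averaged 10.5 and 10.6 there, against 6.11 to 6.38 in the other POMCMfn2KO arrays and 6.14 to 6.17 in controls. Of the 17 acinar markers listed, 13 had a probe set, 12 were bright enough for the test and none rose or fell. The hepatocyte markers averaged 14.39 to 14.50 in POMCMfn2KO livers and 14.35 to 14.36 in control livers, and 1 of their 10 genes rose. The part of these differences in the results below was not tested, and counts without arrays 2 and 3 are given beside those of the family and of each list in which genes were called.

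Mitochondrial ribosomal protein mRNAs differed little between POMCMfn2KO and control liver. Of the 76 members, Mrpl38, Mrps6 and Mrps22 rose, Mrpl41, Mrpl48, Mrps25 and Mrps18c fell, and 69 did not pass the test. None of the 76 was called without POMCMfn2KO 2 and 3, beside 5.34% of all genes tested. The 7 called members are 9.21% of the family, beside 18.0% of all genes tested. Rising members were 3 of 76 beside 7.02% of all genes, and falling members 4 of 76 beside 10.9%. At an unadjusted p under 0.05 the number was 17 of 76, beside 3966 of the 11986 genes tested. When each array was centred on the median of the genes tested, 5 members rose and 1 fell, so the split between the directions depends on the scaling.

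The changes were small in size. The median change of the 76 members was -0.03, beside -0.02 over all genes tested, with 33 members above 0 and 43 below. Their median size without regard to sign was 0.097, beside 0.138 over all genes. The members ranged from -0.32 for Mrpl23 to 0.49 for Mrpl47, so none reached 1.5-fold, which 5.84% of all genes tested did. For 70 of the 76 members (92.1%) the whole 95% confidence interval lay within 1.5-fold in either direction, against 81.3% of all genes. The other members, whose intervals reach past that bound, were Mrpl47, Mrpl20, Mrps6, Mrpl23, Mrps12 and Mrpl9.

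**Figure D1:**
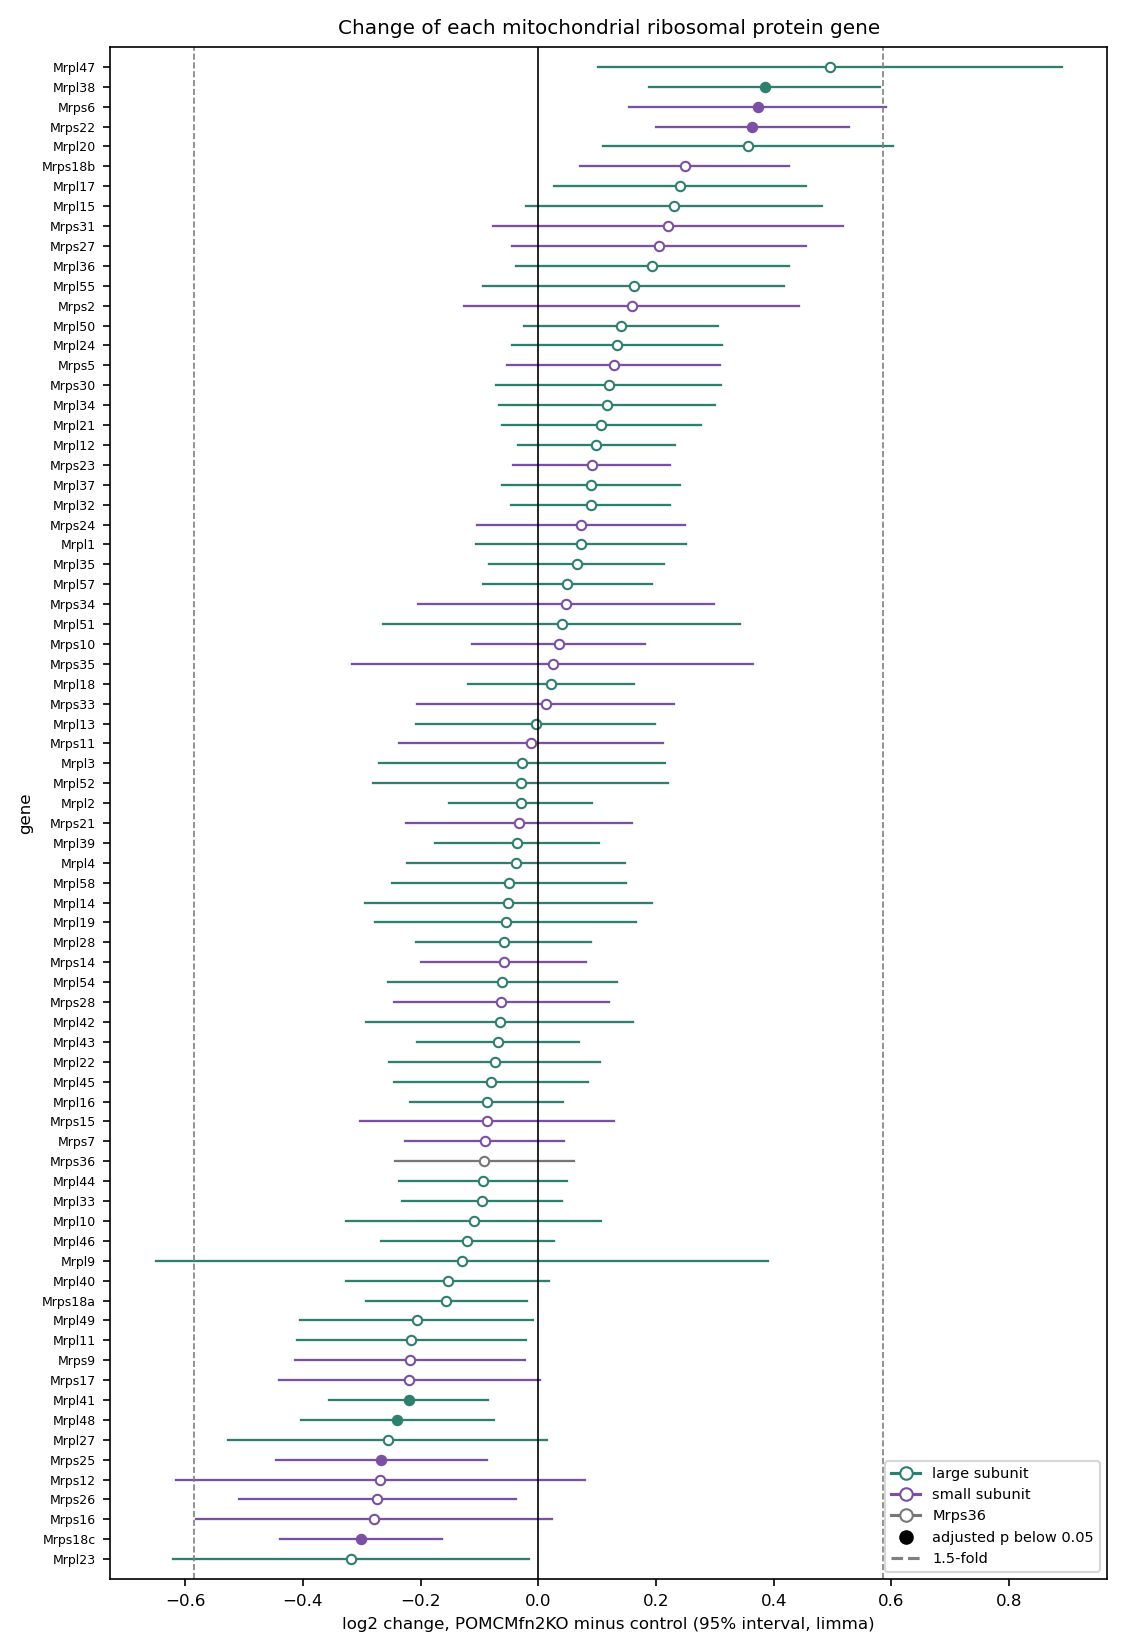
Log2 change (POMCMfn2KO minus control) of each of the 76 mitochondrial ribosomal protein genes, with its 95% interval from limma, ordered from highest to lowest. Filled points are the 7 genes past adjusted p 0.05, colours give the subunit and dashed lines mark 1.5-fold; no point lies beyond those lines.

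**Figure D2:**
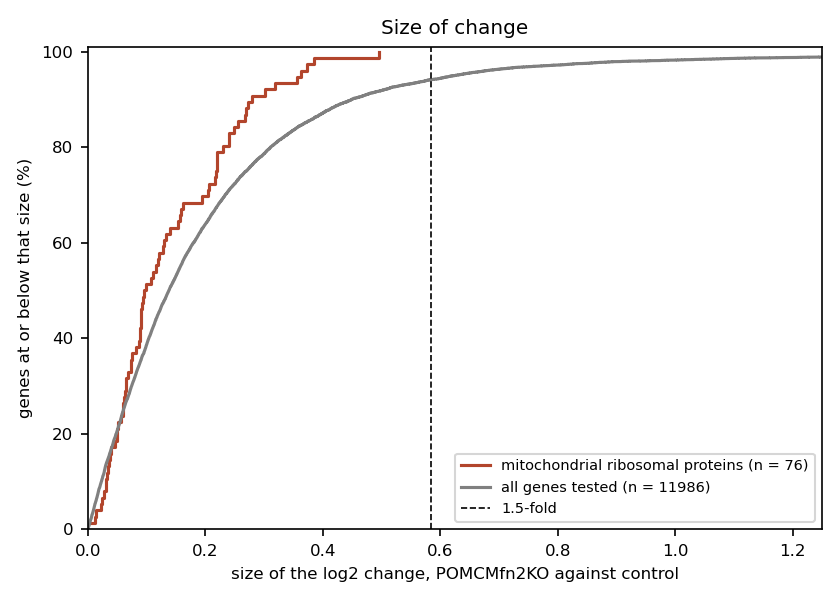
Share of genes (y axis, %) whose log2 change is at or below a given size (x axis), for the 76 mitochondrial ribosomal protein genes and the 11986 genes tested. The members' line reaches 100% before the dashed line at 1.5-fold, which 5.84% of all genes pass.

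Values of the 5 POMCMfn2KO livers and the 3 control livers did not overlap for 15 members (19.7%), with the POMCMfn2KO livers above in 9 and below in 6. Over all genes tested 28.5% did not overlap, 12.0% with POMCMfn2KO above and 16.5% below. The 7 called members are among the 15. The other 8 are Mrpl20, Mrps18b, Mrpl47, Mrpl17, Mrpl15 and Mrpl12, with POMCMfn2KO above, and Mrps18a and Mrpl23, with POMCMfn2KO below.

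Mrps22 and Mrps18c had the lowest p-values among the rising and the falling members, so their promoters are shown first. The sequences are the strand of the gene from RefSeq (GRCm38.p6), 250 bases before to 50 bases after the annotated start, at chr9:98601630-98601929 (minus strand) for Mrps22 and chr5:100798509-100798808 (plus strand) for Mrps18c. Capitals mark the ETS motif CCGGAAG, the core bound by GABP, and in Mrps18c also the E-box CACGTG, which stands before an ETS motif read on the opposite strand.
Mrps22: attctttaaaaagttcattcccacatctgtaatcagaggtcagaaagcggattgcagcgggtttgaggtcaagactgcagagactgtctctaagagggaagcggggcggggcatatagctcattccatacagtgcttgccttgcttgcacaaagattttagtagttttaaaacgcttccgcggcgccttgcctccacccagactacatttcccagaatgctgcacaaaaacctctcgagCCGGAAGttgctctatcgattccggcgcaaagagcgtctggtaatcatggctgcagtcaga
Mrps18c: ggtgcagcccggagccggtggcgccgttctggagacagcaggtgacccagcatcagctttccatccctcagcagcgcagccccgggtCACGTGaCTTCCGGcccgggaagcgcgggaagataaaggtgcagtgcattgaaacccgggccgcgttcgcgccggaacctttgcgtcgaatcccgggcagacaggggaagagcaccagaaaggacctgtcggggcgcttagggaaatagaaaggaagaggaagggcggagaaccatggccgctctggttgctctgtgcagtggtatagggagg
The first base of the ETS motif lies 11 bases before the start of Mrps22 and 156 bases before that of Mrps18c, and the E-box of Mrps18c lies 163 bases before it.

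Motifs of factors known for nuclear-encoded mitochondrial genes were counted on both strands of these 300-base windows. RefSeq windows were found for 67 of the 76 members, 73 windows in all. CCGGAAG stood in 34.2% of the member windows and in 11.6% of the 21263 windows of protein-coding genes. AAGATGG, the core of the YY1 motif, stood in 17.8% and 6.24%, and in no member window did it overlap CCGGAAG. The full NRF1 palindrome stood in 4.11% and 1.33%, and a looser form with 1 central base left free, which includes it, in 16.4% and 6.38%. CACGTG stood in 9.59% and 7.84%, where the same CACGTG of Mrpl2 was counted in each of its overlapping windows. The median GC content was 58.7% in member windows and 56.3% in protein-coding windows, and the part of base composition in these shares was not tested. Of the 6 called members with a window, 3 held CCGGAAG. These were Mrps22 and Mrps18c, shown above, and Mrpl48, in 1 of its 4 windows. A match describes the letters of the window and does not show that a factor binds there.

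In the small subunit, 2 of 26 members rose and 2 fell (15.4% called, beside 18.0% of all genes tested). Mrps22, a protein found only in mitochondrial ribosomes and linked in humans to mitochondrial disease, had levels of 9.52, 9.43, 9.60, 9.35 and 9.59 in POMCMfn2KO livers and 9.15, 9.16 and 9.10 in control livers. Every POMCMfn2KO liver was above every control. The rise was 0.36 ± 0.07 (SE), or 1.29-fold, with a limma adjusted p of 0.0109. It lost its call without control 3 (adjusted p = 0.0552), with a change of 0.35.

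Mrps18c, 1 of the 3 mitochondrial relatives of the bacterial protein S18, moved the other way. Its levels were 10.45, 10.39, 10.43, 10.57 and 10.45 in POMCMfn2KO livers and 10.73, 10.77 and 10.78 in control livers. The groups did not overlap, and the change was -0.30 ± 0.06 (SE), 1.23-fold lower, with a limma adjusted p of 0.0114. Without control 2 or control 3 the adjusted p was 0.0575 and 0.0558. The other relatives of S18 did not pass the test. Mrps18b, also of the small subunit, averaged 10.01 ± 0.12 in POMCMfn2KO livers and 9.76 ± 0.03 in control livers, a difference of 0.25 with adjusted p = 0.0568. Mrps18a, of the large subunit, averaged 9.30 ± 0.04 and 9.46 ± 0.07, a difference of -0.16 with adjusted p = 0.106. For Mrps18b every POMCMfn2KO liver was above the controls, and for Mrps18a every one was below.

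Mrps6, a relative of bacterial S6, had levels of 8.69, 8.67, 8.71, 8.42 and 8.79 in POMCMfn2KO livers and 8.36, 8.37 and 8.12 in control livers. POMCMfn2KO liver 4 was just above the upper controls and the other 4 were farther above. The rise was 0.37 ± 0.10 (SE), 1.29-fold, with a limma adjusted p of 0.0289, and a second probe set gave 0.26. Mrps6 shares its locus with Slc5a3, so signal from that gene cannot be told apart if a probe set reads both. Its call was lost without any 1 control or without POMCMfn2KO 2 or 3, with adjusted p between 0.0595 and 0.124.

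Mrps25, found only in mitochondrial ribosomes, had levels of 7.84, 7.96, 8.07, 8.13 and 7.94 in POMCMfn2KO livers and 8.16, 8.33 and 8.27 in control livers. Its highest POMCMfn2KO liver came close to the lowest control, without overlap. The gene overlaps Nr2c2 in the annotation. The change was -0.27 ± 0.08 (SE), 1.20-fold lower, with a limma adjusted p of 0.0466. It lay close to the threshold, and leaving out any control or POMCMfn2KO 1, 2, 3 or 5 put it between 0.0514 and 0.179.

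Other small-subunit members with large differences did not pass the test. Mrps26, found only in mitochondria, averaged 9.25 ± 0.19 in POMCMfn2KO livers and 9.52 ± 0.04 in control livers (difference -0.27, adjusted p = 0.101), with POMCMfn2KO liver 1 at 9.55, among the controls. Mrps16, a relative of bacterial S16, averaged 10.59 ± 0.26 and 10.87 ± 0.02 (difference -0.28, adjusted p = 0.183). Mrps12, which lines the decoding centre, averaged 10.37 ± 0.30 and 10.64 ± 0.04 (difference -0.27, adjusted p = 0.262). In each of these genes at least 1 POMCMfn2KO liver overlapped the controls, whose own values were tight.

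**Figure D3:**
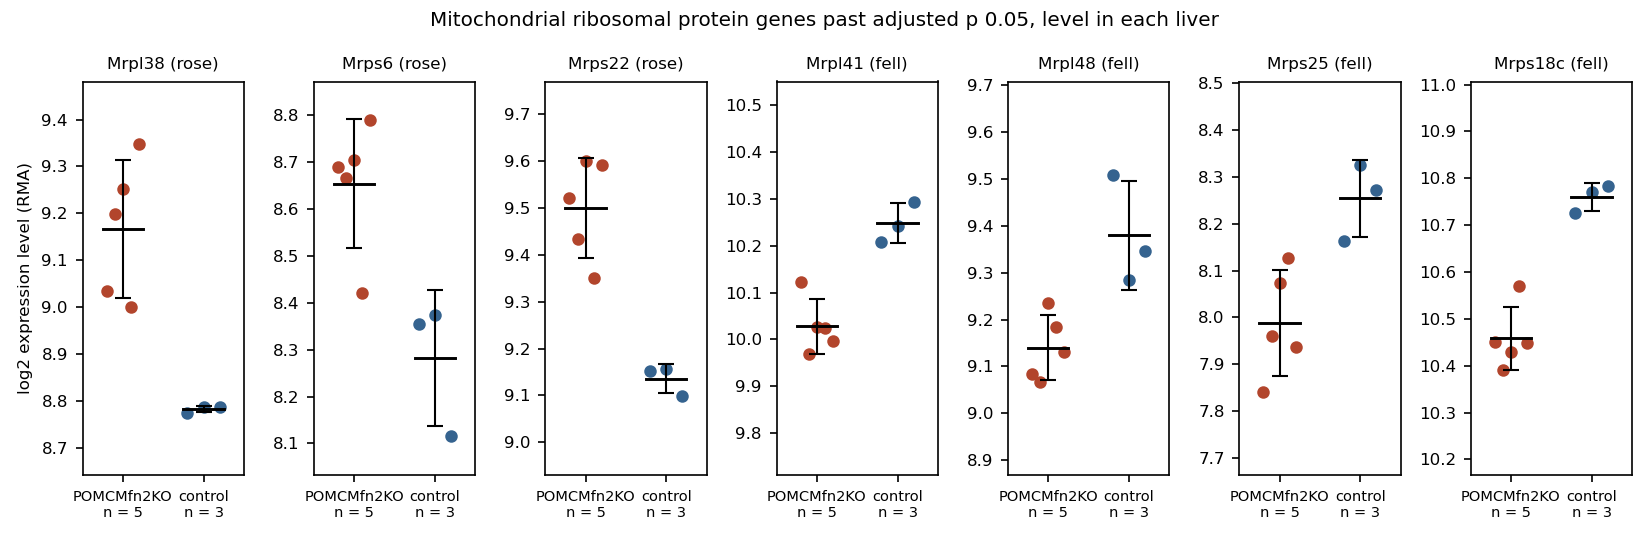
Log2 expression level of the 7 members past adjusted p 0.05 in each liver (points), with the mean and SD of the 5 POMCMfn2KO and the 3 control livers; each panel has its own axis range of equal length. POMCMfn2KO and control values do not overlap in any panel.

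In the large subunit, 1 of 49 members rose and 2 fell (6.12% called, beside 18.0% of all genes tested). Mrpl38, a mitochondria-specific protein of the central protuberance, the crown of the subunit that faces the small subunit, had levels of 9.03, 9.20, 9.25, 9.00 and 9.35 in POMCMfn2KO livers and 8.77, 8.79 and 8.79 in control livers. The rise was 0.38 ± 0.09 (SE), 1.31-fold, with a limma adjusted p of 0.0174. Its probe sets went against each other, since the other 2 gave -0.21 and 0.00, so the direction rests on the choice of probe set. Without any 1 control the adjusted p lay between 0.0665 and 0.0730.

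Mrpl48 belongs to the same protuberance and fell. Its levels were 9.08, 9.07, 9.23, 9.18 and 9.13 in POMCMfn2KO livers and 9.51, 9.28 and 9.35 in control livers, all POMCMfn2KO livers below. The change was -0.24 ± 0.07 (SE), 1.18-fold lower, with a limma adjusted p of 0.0495, and a second probe set gave -0.20. The gene overlaps Rab6a in the annotation. Its call was lost without any control or without POMCMfn2KO 1, 2, 3 or 5, with adjusted p between 0.0600 and 0.201. The other 4 members listed for the protuberance, Mrpl18, Mrpl27, Mrpl40 and Mrpl46, differed by 0.02, -0.26, -0.15 and -0.12 and did not pass.

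Mrpl41, found only in mitochondria, had levels of 10.12, 9.97, 10.03, 10.02 and 10.00 in POMCMfn2KO livers and 10.21, 10.24 and 10.29 in control livers. All POMCMfn2KO livers were below the controls. The change was -0.22 ± 0.06 (SE), 1.16-fold lower, with a limma adjusted p of 0.0344, and a second probe set gave -0.26. Without any control or without POMCMfn2KO 2, 3 or 5 the adjusted p lay between 0.0549 and 0.131.

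Of the 8 members listed for the exit tunnel, through which the new chain leaves, none rose or fell in limma. In 3 of them the unadjusted p was under 0.05, beside 3966 of the 11986 genes tested. The 8 included the members with the highest and the lowest change. Mrpl47 had levels of 9.99, 9.51, 9.55, 9.09 and 9.26 in POMCMfn2KO livers and 9.05, 9.03 and 8.87 in control livers, a difference of 0.49 with adjusted p = 0.0802. Its POMCMfn2KO livers spread widely, and liver 4 was just above the controls. Without POMCMfn2KO 4 the difference was 0.59 and the adjusted p 0.0268, in a fit that called 22.9% of all genes. Leaving out any other 1 array gave no call. Mrpl23 had levels of 9.69, 9.35, 9.78, 9.72 and 9.20 in POMCMfn2KO livers and 9.87, 9.87 and 9.86 in control livers, a difference of -0.32 with adjusted p = 0.131. Livers 2 and 5 were low, and the other 3 lay nearer the controls. Mrpl44 and Mrpl45, of which Mrpl45 helps to anchor the ribosome at the inner membrane, differed by -0.09 and -0.08, and Mrpl39 by -0.04.

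The stalk, which recruits the translation factors, was represented by 4 members, none of which rose or fell in limma. At an unadjusted p under 0.05 there was 1, beside 3966 of the 11986 genes tested. Mrpl12, which also binds the mitochondrial RNA polymerase, averaged 11.67 ± 0.06 in POMCMfn2KO livers and 11.57 ± 0.03 in control livers (difference 0.10, adjusted p = 0.284). Mrpl11, at the base of the stalk, averaged 9.61 ± 0.15 and 9.83 ± 0.01 (difference -0.22, adjusted p = 0.116). POMCMfn2KO liver 1 was level with the controls for Mrpl11, and the other 4 were below. Without liver 1 its adjusted p was 0.0239, in a fit that called 23% of all genes. Leaving out any other 1 array gave no call. Mrpl10 and Mrpl54 differed by -0.11 and -0.06.

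Among the remaining members of the large subunit, Mrpl20, a relative of bacterial L20, was just short of the threshold. Its levels were 10.46, 10.25, 10.43, 9.97 and 10.21 in POMCMfn2KO livers and 9.96, 9.92 and 9.84 in control livers, a difference of 0.36 with adjusted p = 0.0512. All POMCMfn2KO livers were above the controls, liver 4 only slightly. Without POMCMfn2KO 4 the adjusted p was 0.00806. Mrpl15 differed by 0.23 (adjusted p = 0.184), Mrpl51 by 0.04, Mrpl19 by -0.06 and Mrpl3 by -0.03. Mrpl58, a peptidyl-tRNA hydrolase that has become part of the ribosome, differed by -0.05, and Mrps30, another large-subunit protein, by 0.12.

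The remaining named members of the small subunit, Mrps24, Mrps27, Mrps9, Mrps11 and Mrps15, differed by 0.07, 0.20, -0.22, -0.01 and -0.09, and none passed the test. Mrps36, outside the ribosome, averaged 8.69 ± 0.09 in POMCMfn2KO livers and 8.78 ± 0.03 in control livers, a difference of -0.09 with adjusted p = 0.381. Of the 30 members listed as found only in mitochondrial ribosomes 5 were called (16.7%), and 2 of the 45 with bacterial relatives (4.44%). Over all genes tested the share was 18.0%. Mrps18b, named above as a relative of S18, was counted among the 30. The difference between the shares of the 30 and the 45 was not tested.

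The probe sets of a member did not always share a sign. Of the 30 members with several probe sets above the brightness filter, 13 had probe sets of opposite sign, and in 5 of these, Mrpl38, Mrps15, Mrps26, Mrps9 and Mrpl15, at least 1 probe set had an unadjusted p under 0.05. The 13 include any values on either side of 0, such as -0.03 and 2.7e-06 in Mrpl3. In Mrps15 the brightest probe set gave -0.09, while the others gave -0.35 and 0.16. In Mrps9 the probe sets ranged from -0.22 to 0.23. Mrpl50 and Mrpl49 did not pass on their brightest probe sets. Mrpl50 rose and Mrpl49 fell with the mean over probe sets and with the probe set of highest variance.

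The family's mean level was highest in POMCMfn2KO liver 1, while the other livers of that group did not stand above the controls. The mean level of the 76 members was 9.78, 9.59, 9.65, 9.62 and 9.61 in POMCMfn2KO livers and 9.68, 9.65 and 9.64 in control livers, so POMCMfn2KO liver 3 lay within the range of the controls and livers 2, 4 and 5 below it. The mean difference between the groups was -0.003. Liver 1 held the highest value of the 8 arrays in 35 of 76 members (46.1%), against 19.4% of all genes tested. In both subunits liver 1 stood above the control mean, by 0.11 in the large and 0.15 in the small subunit. Ppargc1a, a coactivator of mitochondrial biogenesis, was also highest in liver 1, at 9.32, 7.95, 8.44, 7.05 and 8.15 in POMCMfn2KO livers, against 8.25, 8.45 and 8.11 in control livers. Whether the levels of Ppargc1a and of the family move together was not tested.

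**Figure D4:**
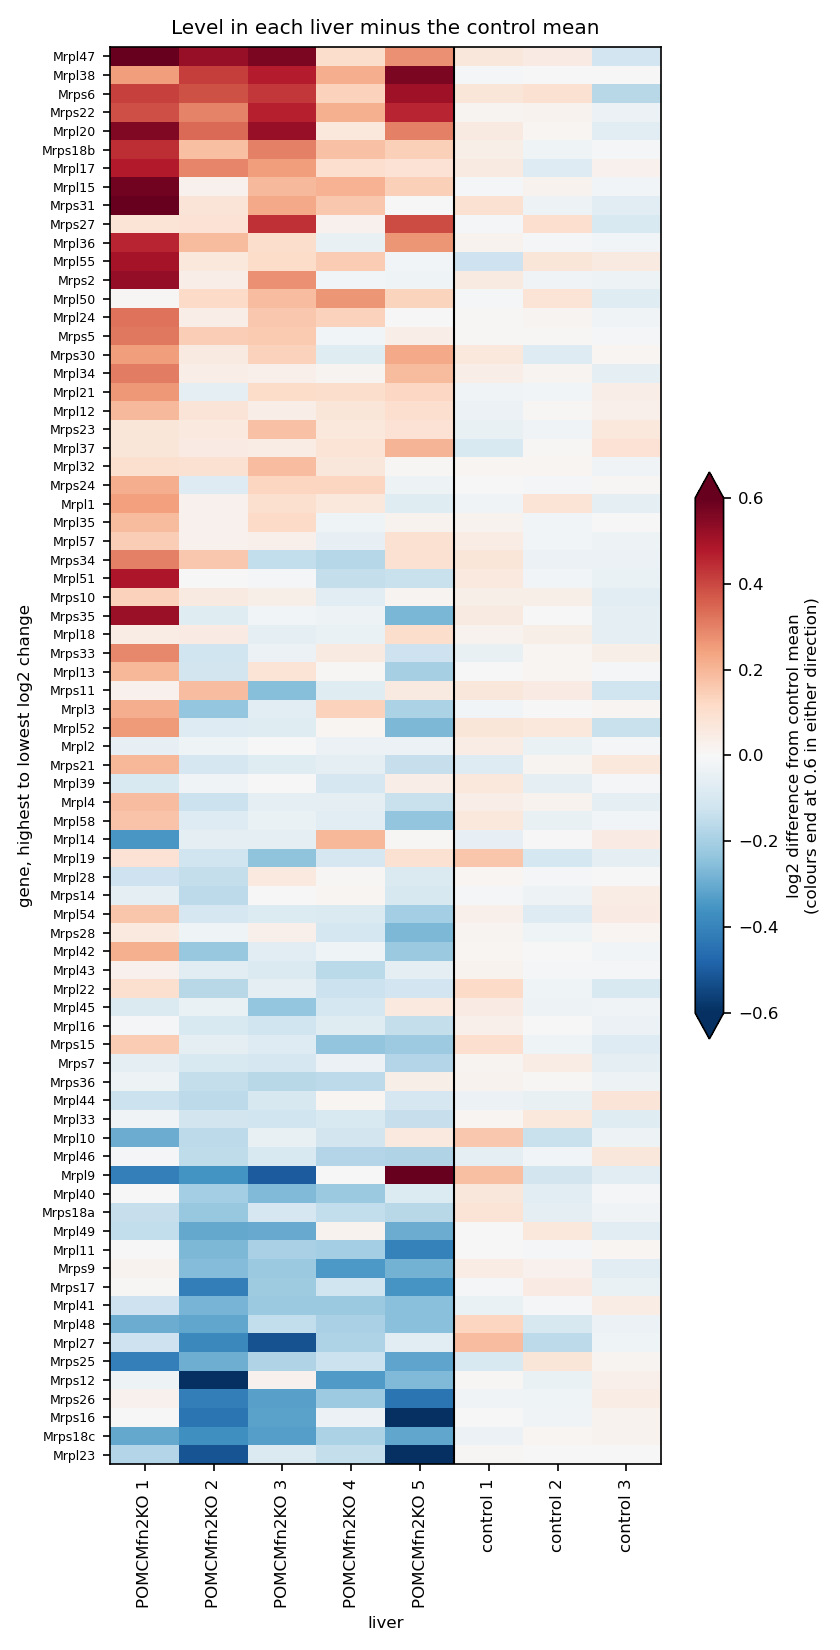
Level of each of the 76 genes in each liver minus its mean in the 3 control livers (colour, log2; colours end at 0.6), with genes ordered by log2 change as in the plot of changes. The column of POMCMfn2KO 1 is red over much of its length, and it is the highest of the 8 arrays in 35 genes; the control columns are pale.

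The members also spread more among POMCMfn2KO livers than among control livers. The median SD of a member was 0.131 over the 5 POMCMfn2KO livers and 0.0517 over the 3 control livers, beside 0.135 and 0.0686 over all genes tested. The test assumes 1 spread for both groups, so the tight controls bear on every call. Without control 1, 2 or 3, 2, 1 and 0 members were called. Without POMCMfn2KO 1 or 4, 10 were called in each case, and without POMCMfn2KO 2, 3 or 5, 3, 3 and 5. The shares of all genes called in these fits were 6.85%, 6.84% and 7.2% without control 1, 2 and 3. They were 23% and 22.9% without POMCMfn2KO 1 and 4, and 12.4%, 11.7% and 16.3% without POMCMfn2KO 2, 3 and 5. Without POMCMfn2KO 2 and 3, when no member was called, 5.34% of all genes were. Mrps22 then differed by 0.35 (adjusted p = 0.0622) and Mrps18c by -0.27 (adjusted p = 0.0814). When the 3 controls were averaged to 1 sample, an alternative chosen after seeing the data, no member and 31 of all genes were called.

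The ribosome of the cytosol is built from a separate set of proteins. Of 44 tested cytosolic ribosomal proteins, 9 rose and 1 fell (22.7% called, beside 18.0% of all genes tested). Of these 44 changes, 41 were above 0, beside 5486 of 11986 over all genes, and the median was 0.14, beside -0.02. The mean level of that list stood above the control mean in each POMCMfn2KO liver, by 0.06 in liver 4 and by 0.17 to 0.19 in the other 4. Of 79 tested nuclear-encoded respiratory chain subunits, whose partners the mitochondrial ribosome makes, none was called in limma, with a median of 0.03. At an unadjusted p under 0.05 there were 8, beside 3966 of the 11986 genes tested. Without control 1, 2 or 3, 2, 0 and 0 cytosolic ribosomal protein genes rose. Without POMCMfn2KO 2, 3 or 4, 4, 5 and 15 rose, and without POMCMfn2KO 2 and 3 together none did. The shares of all genes called in these fits are given above. Liver 1 was also the highest array for 60.8% of the respiratory chain genes and 36.4% of the cytosolic ribosomal protein genes. The difference between the lists was not tested.

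**Figure D5:**
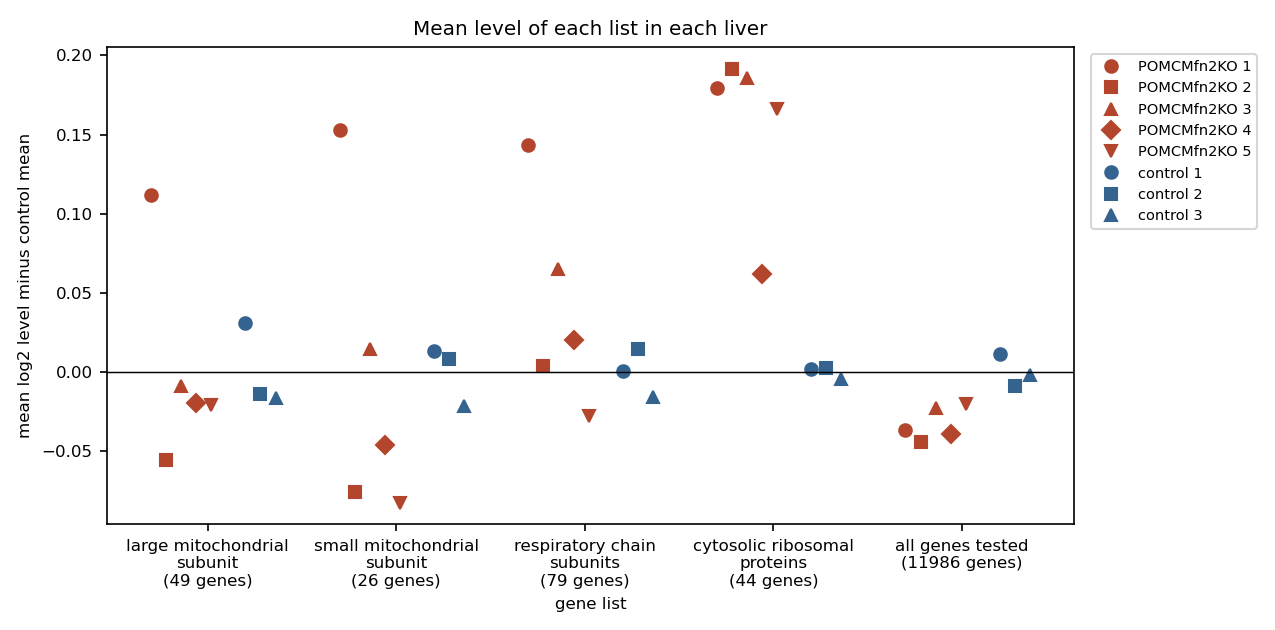
Mean log2 level of each gene list in each liver minus the mean of the 3 control livers (y axis), with POMCMfn2KO livers in red and control livers in blue. POMCMfn2KO 1 is highest for both mitochondrial subunits and the respiratory chain, and each POMCMfn2KO liver is above the controls for cytosolic ribosomal proteins.

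Genes that build and serve the mitochondrial ribosome were read from lists chosen by function. Of the 4 tested subunits with other names, none rose or fell in limma. Beside 3966 of the 11986 genes tested, 1 of the 4 had an unadjusted p under 0.05. That was Dap3, a GTP-binding protein of the small subunit, at 9.54, 9.04, 9.31, 9.72 and 8.98 in POMCMfn2KO livers and 9.81, 9.82 and 9.78 in control livers. All POMCMfn2KO livers were below the controls, and the difference was -0.49 with adjusted p = 0.0638. Without POMCMfn2KO 1 or 4 the adjusted p was 0.0414 and 0.0142, in fits that called 23% and 22.9% of all genes. Leaving out any other 1 array gave no call.

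Of 25 tested genes for assembly and ribosomal RNA, 2 rose and none fell (8% called, beside 18.0% of all genes tested). Ngrn, needed for the large ribosomal RNA, averaged 8.87 ± 0.22 in POMCMfn2KO livers and 8.46 ± 0.13 in control livers, a change of 0.41 with adjusted p = 0.0495. Mterf3, which acts on mitochondrial transcription and ribosome assembly, averaged 9.44 ± 0.11 and 9.19 ± 0.06, a change of 0.25 with adjusted p = 0.0461. Both calls were lost without any control or without POMCMfn2KO 1, 2, 3 or 5, with adjusted p up to 0.171 for Ngrn and 0.163 for Mterf3. Neither was called without POMCMfn2KO 2 and 3 (adjusted p = 0.115 and 0.162), with changes of 0.45 and 0.24.

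Of 15 tested translation factors, 1 rose and 1 fell (13.3% called, beside 18.0% of all genes tested). The called genes are partners in 1 complex. Lrpprc, which holds mitochondrial mRNAs stable together with Slirp, had levels of 10.23, 10.16, 10.24, 10.13 and 10.28 in POMCMfn2KO livers and 9.91, 9.96 and 9.94 in control livers. Slirp had levels of 9.65, 9.57, 9.65, 9.72 and 9.53 in POMCMfn2KO livers and 9.87, 9.92 and 9.85 in control livers. The groups did not overlap for either gene. Lrpprc rose by 0.27 ± 0.06 (SE, adjusted p = 0.0159) and Slirp changed by -0.26 ± 0.06 (SE, adjusted p = 0.0245). Both were lost without any 1 control, Slirp also without POMCMfn2KO 2 or 3, with adjusted p between 0.0503 and 0.110. Without POMCMfn2KO 2 and 3 neither was called (adjusted p = 0.0790 and 0.119), with changes of 0.28 and -0.24. Tufm, the elongation factor that brings charged tRNAs, differed by 0.04 (adjusted p = 0.70).

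Of 17 tested enzymes that charge mitochondrial tRNAs, 3 fell and none rose (17.6% called, beside 18.0% of all genes tested). Gatb and Gatc, subunits of the amidotransferase that makes glutaminyl-tRNA, changed by -0.50 (adjusted p = 0.0423) and -0.29 (adjusted p = 0.0192). Qrsl1, a further subunit of that enzyme, differed the other way, by 0.20, and did not pass (adjusted p = 0.255). Lars2, the leucyl-tRNA synthetase, changed by -0.35 (adjusted p = 0.0431). A second probe set gave -0.10 for Gatb and 0.04 for Lars2. Gatc did not pass without control 1 or 2 (largest adjusted p 0.0900), and neither did Gatb and Lars2 without any 1 control or without POMCMfn2KO 2, 3 or 5 (Gatb also without 1), where the largest adjusted p was 0.138 and 0.155. Without POMCMfn2KO 2 and 3, Gatb, Gatc and Lars2 changed by -0.49, -0.30 and -0.34, and none was called (adjusted p = 0.159, 0.0816 and 0.166).

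Of 18 tested genes for mitochondrial DNA, its transcription and biogenesis, 4 rose and 1 fell (27.8% called, beside 18.0% of all genes tested). Pprc1, a coactivator related to Ppargc1a, had levels of 7.11, 7.21, 7.41, 6.80 and 7.17 in POMCMfn2KO livers and 6.60, 6.41 and 6.52 in control livers, all POMCMfn2KO livers above. It rose by 0.63 ± 0.12 (SE), 1.55-fold, with a limma adjusted p of 0.00952, and lost its call without control 2 (0.0524). Polrmt, the mitochondrial RNA polymerase, rose by 0.36 (adjusted p = 0.0182). Polg, the catalytic subunit of the mitochondrial DNA polymerase, rose by 0.33 (adjusted p = 0.0290), although 2 further probe sets gave -0.00 and 0.02. Polg2, its accessory subunit, averaged 7.93 ± 0.16 in POMCMfn2KO livers and 8.37 ± 0.01 in control livers and fell, with a change of -0.44 (adjusted p = 0.0127). Polrmt was lost without control 2 or 3, Polg without any control or POMCMfn2KO 3, and Polg2 without any control, with adjusted p up to 0.0849, 0.109 and 0.0570. Without POMCMfn2KO 2 and 3, Pprc1 alone of the list was called, with a change of 0.52 (adjusted p = 0.0497), and Polrmt, Polg and Polg2 changed by 0.34, 0.29 and -0.35 (adjusted p = 0.0999, 0.110 and 0.0566).

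The ETS factor GABP is made of 2 kinds of subunit. Gabpb1 rose by 0.25 ± 0.07 (SE, adjusted p = 0.0338), a call that fits without any 1 control, or without POMCMfn2KO 2 or 3, did not keep (largest adjusted p 0.145). Its change without POMCMfn2KO 2 and 3 was 0.26 (adjusted p = 0.126). Gabpa, the subunit that binds CCGGAAG, differed by 0.16 (adjusted p = 0.21). Nrf1 differed by -0.10, Tfam, which packs mitochondrial DNA, by -0.07, and Ppargc1a by -0.09, and none of them passed the test.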

How the data were processed

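Whole-liver RNA of 5 POMCMfn2KO and 3 control mice was measured on 8 Affymetrix arrays. Each probe set has 1 deposited log2 value per array, for which the submitters' processing notes name RMA and the affy package without versions. No value was transformed again, and arrays carry no read depth, so their number limits the precision. The labels name no sex, time or batch.

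For each of the 18193 genes with a probe set of 1 symbol, the brightest by its mean of the 8 arrays stood for the gene. Genes with a mean under 5.80, the median of all non-control probe sets, were left out, which left 11986 genes and all 76 members. The test was limma 3.58.1 in R 4.3.3 (lmFit and eBayes, no trend, not robust), 2-sided, with Benjamini-Hochberg adjustment over all genes tested and a threshold of 0.05. It was checked on simulated data with 1 spread per gene for both groups. That check cannot show how the test behaves under the unequal spread of these groups. Named genes were those past the threshold, the 6 largest changes in each direction, the 5 highest and 3 lowest in mean level, members whose probe sets disagree, the stalk, and a short list by function. The members and lists were chosen with earlier results of these data known. Alternatives changed the scaling, the filter, the probe set, the variance model, the threshold and the arrays included. Promoters came from RefSeq (GRCm38.p6), matched by gene identifier. The labels do not say how the animals of a group are related, so p-values measure the spread between these samples.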

Additional observations from a re-analysis of the deposited data

Results flagged for a closer look

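In 5 of the 76 members, 1 of the 5 POMCMfn2KO livers stood far from the others, where chance alone would give about 3.8. Mrpl51, Mrpl4 and Mrps21 were high in POMCMfn2KO liver 1, at 11.53, 10.04 and 9.72, against 11.04, 9.80 and 9.46 in the next liver of that group. Mrpl37 was high in POMCMfn2KO liver 5, at 8.70 against 8.58 in the next. Mrps23 was high in POMCMfn2KO liver 3, at 8.46 against 8.36 in the next. None of these members rose or fell.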

How the results depend on the processing

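Of 23 alternatives, none moved the members' median change by more than 0.126 (range of the median -0.06 to 0.01). That bound is the SD of the members' median level over the POMCMfn2KO arrays. It is larger than the median change of -0.03 itself, so it cannot show whether the sign is stable. The median was 0.007 with the replicate block and 0.002 without POMCMfn2KO 2 and 3. Of the 34 named members, 25 kept the sign of their change in every alternative. Many alternatives could not turn a sign. Another filter, a trended and robust variance, array weights, another threshold and averaged controls left each member's change and the median as they were. The choice of probe set could act only on members with several probe sets. The sign was therefore tested only by scaling, probe set, replicate block and arrays left out. The calls were less stable.

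Members that rose numbered 5 after quantile normalization, after centring on the median of the genes tested, with a filter at a mean of 7 and with a mean over probe sets, 1 with plain probe sets first, and 6 with array weights by genotype or at adjusted p under 0.10. Members that fell numbered 2 after quantile normalization, with no filter, with a mean over probe sets and with the probe set of highest variance, 1 after centring on the median of the genes tested, and 7 with array weights. At adjusted p under 0.01, with POMCMfn2KO 2 and 3 left out, and with the controls averaged to 1 sample, 0 rose and 0 fell. Leaving out 1 array gave 0 to 5 rising and 0 to 6 falling members. Over all genes, 325, 286 and 303 rose and 496, 534 and 560 fell without control 1, 2 and 3, with ranges over all 8 arrays of 286 to 1156 and 496 to 1642. They numbered 1323 rising with array weights, 1335 rising at adjusted p under 0.10, 253 and 449 (rising and falling) at 0.01, 239 and 401 without POMCMfn2KO 2 and 3, and 8 and 23 with averaged controls.

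With the replicate block, 6 members rose and 3 fell, and the median change was 0.01. The labels do not say that the replicate numbers pair the samples. Deviations of same-numbered arrays correlated at 0.04, 0.04 and -0.03 over genes, within the range of -0.08 to 0.05 for arrays of different number.

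Changes of opposite sign were 0.0079 for Mrps11 with centring on the genes tested and 0.0021 without POMCMfn2KO 2 and 3. With the mean over probe sets, Mrpl3 gave 0.056, Nrf1 0.014 and Tfam 0.019. Without POMCMfn2KO 2 and 3, Mrpl3 gave 0.055 and Mrpl19 gave 0.027. The choice of a single probe set turned Mrpl38 (-0.21), Mrpl15 (-0.35), Mrps9 (0.012 and 0.23) and Tfam (0.11). The replicate block turned Mrps15 (0.0057), Mrpl58 (0.017) and Ppargc1a (0.30). Leaving out 1 array at a time gave -0.072 to 0.048 for Mrps11, -0.072 to 0.085 for Mrpl51, -0.11 to 0.027 for Mrpl19, -0.088 to 0.024 for Mrpl3 and -0.37 to 0.19 for Ppargc1a. The cause was not tested.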
